A study of Mus musculus with 33 samples.

Results

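Brain RNA of Mcoln1-/- mice was compared with that of Mcoln1+/- mice at 2 months of age. The comparison holds the 8 libraries labelled with this age, 4 of each genotype, out of 33 libraries in the series and 23 in the table that holds the ages of 1, 2 and 3 months. Libraries of 3 months were not pooled with them. All mice were on the C57Bl/6J background and were littermates per the study's methods. The Mcoln1-/- mice have no intact copy of Mcoln1, and the Mcoln1+/- controls keep 1, so every mouse compared carried a disrupted copy, and no Mcoln1+/+ library is labelled with this age. Which part of the gene was disrupted is not given in the sources used here, nor is the brain region taken. RNA was read from the 3′ ends of transcripts by MARS-seq, a protocol first used for single cells and applied here to bulk tissue, and each value is the number of uniquely mapped reads of a gene. Total counts ranged from 2131384 to 3147730 (median 2216228.5) among the 4 controls and from 1614759 to 3186295 (median 2409545.5) among the 4 libraries of Mcoln1-/- mice. The labels number the libraries of a genotype without naming an animal, so p-values measure the spread between these libraries.

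Mcoln1 encodes TRPML1 (mucolipin 1), a cation channel of the late endosome and lysosome that releases calcium and other cations into the cytoplasm and takes part in autophagy and in signaling through mTOR and TFEB. Its loss in humans causes mucolipidosis type IV, a lysosomal storage disease in which myelination of the brain is poor from early life. Oligodendrocytes wrap axons in myelin, a membrane rich in galactolipids and in a small set of abundant proteins, while microglia are the resident phagocytes of the brain, make most of its complement C1q and respond to interferons (IFN).

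Before genotypes were compared, the libraries were compared with each other. Counts of Xist and of the Y-linked genes Ddx3y, Eif2s3y, Kdm5d and Uty read Mcoln1+/- replicates 1, 2 and 3 and Mcoln1-/- replicates 1 and 2 as female, and Mcoln1+/- replicate 4 and Mcoln1-/- replicates 3 and 4 as male. The sexes were thus unequal between genotypes, and the labels do not give them. On the first principal component, Mcoln1+/- replicates 1 and 4 lay at opposite ends, at -30.9 and 24.2, with the other libraries from -6.32 to 11.6. This component held 26.3% of the variance, and 4.0% of it lay between the genotypes. The second component held 19.9% of the variance, with 69% of it between the genotypes. In Mcoln1+/- replicate 1, the summed level of 24 neuron markers was 19941 CPM (read counts scaled to library size, with TMM factors), against 14981 to 15692 in the other Mcoln1+/- libraries and 16586 to 18059 in the Mcoln1-/- libraries. The summed level of 34 myelin protein genes was 12862 CPM in this library. It was 16408, 16118 and 19281 CPM in Mcoln1+/- replicates 2, 3 and 4. Correlations of log2 CPM between libraries ran from 0.956 to 0.980 among Mcoln1+/- libraries and from 0.975 to 0.986 among Mcoln1-/- libraries. Markers of neurons, astrocytes, oligodendrocytes and microglia were all counted, as the tissue label says. Of 17 genes listed for peripheral leukocytes, 6 were in the table, of which Pf4 had the most reads. Their sum was 15.8 to 36.9 CPM in the Mcoln1+/- libraries and 19.8 to 24.7 in the Mcoln1-/- libraries, and is not a measure of cells from the blood.

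Mcoln1 itself (chr8:3500457-3515232 on GRCm38, plus strand) checked the labels. It was counted at 53.6, 38.2, 39.2 and 44.7 CPM in the Mcoln1+/- libraries and 5.56, 7.13, 6.81 and 4.59 CPM in the Mcoln1-/- libraries. All 4 Mcoln1-/- libraries lay far below all 4 controls, a 7.14-fold difference (log2 fold-change -2.84, SE 0.20, adjusted p = 6.44e-08), and the exact 2-sided permutation test gave its smallest possible p, 0.0286. Between 9 and 23 reads per library were still counted on the gene in Mcoln1-/- mice, and whether the counted 3′ end lies inside the disrupted part is not given. None of the 17 tested genes within 1 Mb of Mcoln1 was differentially expressed by edgeR, DESeq2 or limma-voom, and none had an unadjusted edgeR p under 0.05 (log2 fold-changes from -0.26 to 0.45, lowest adjusted p 0.678). Among them is Pnpla6, a phospholipase gene that starts 151 bases beyond the end of Mcoln1, with 27.8 CPM in controls and 31.3 CPM in Mcoln1-/- mice (log2 fold-change 0.17, adjusted p = 0.858).

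At 2 months, genes of microglia, of the complement C1q complex and of the IFN response were higher in Mcoln1-/- brain, and genes of the myelin sheath were lower. A gene was called differentially expressed (DE) at an adjusted p of at most 0.05 in edgeR's quasi-likelihood test and a fold-change of at least 1.5. This was met by 33 of 10599 genes tested (0.311%), 17 higher (0.16%) and 16 lower (0.151%) in Mcoln1-/- mice. The groups did not overlap for 32 of the 33, the exception being Ugt8a, against 519 genes (4.9%) without overlap among all genes tested, 264 higher (2.49%) and 255 lower (2.41%). The median log2 fold-change over all genes tested was 0.0033, and 835 (7.88%) had an unadjusted p under 0.05. Without Mcoln1+/- replicate 1, at the low end of the first principal component, 85 genes were DE, 35 higher and 50 lower, among them all 33. Without Mcoln1+/- replicate 4, at its high end, 28 were DE, 16 higher and 12 lower, among them 27 of the 33.

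**Figure D1:**
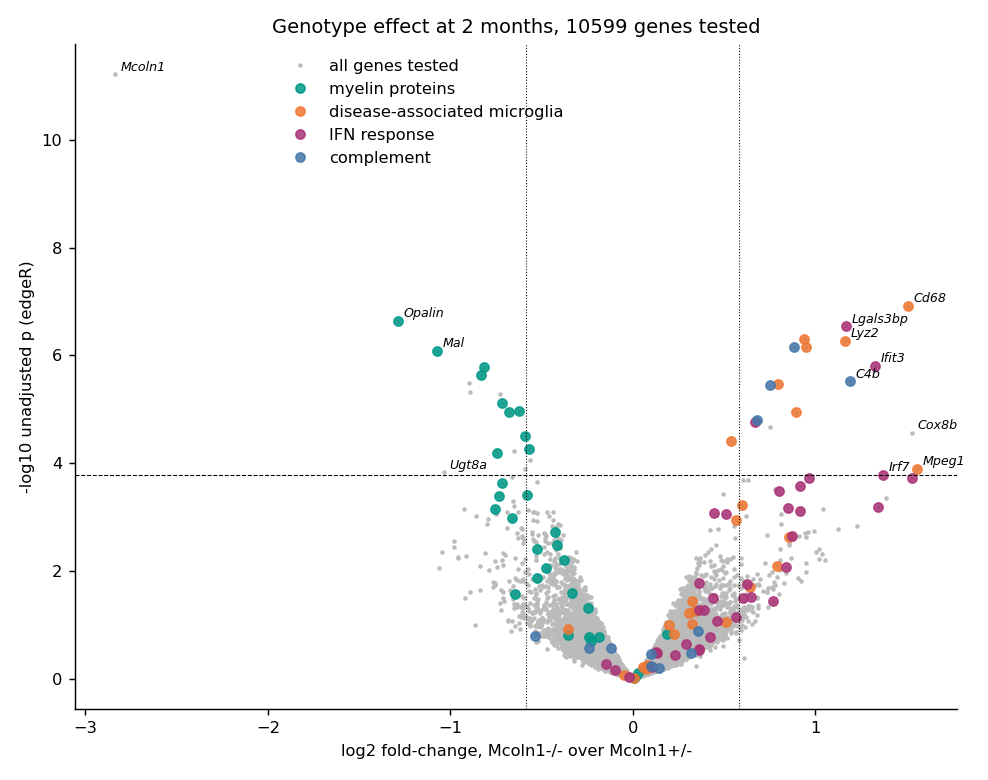
Each point is 1 of 10599 genes tested, with the log2 fold-change of Mcoln1-/- over Mcoln1+/- brain at 2 months on the x axis and -log10 of edgeR's unadjusted p on the y axis; the dashed line is the largest p among DE genes and the dotted lines mark a 1.5-fold change. Myelin protein genes lie to the left, with Opalin and Mal farthest after Mcoln1, and microglial, IFN and complement genes to the right, where Cd68 has the smallest p.

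**Figure D2:**
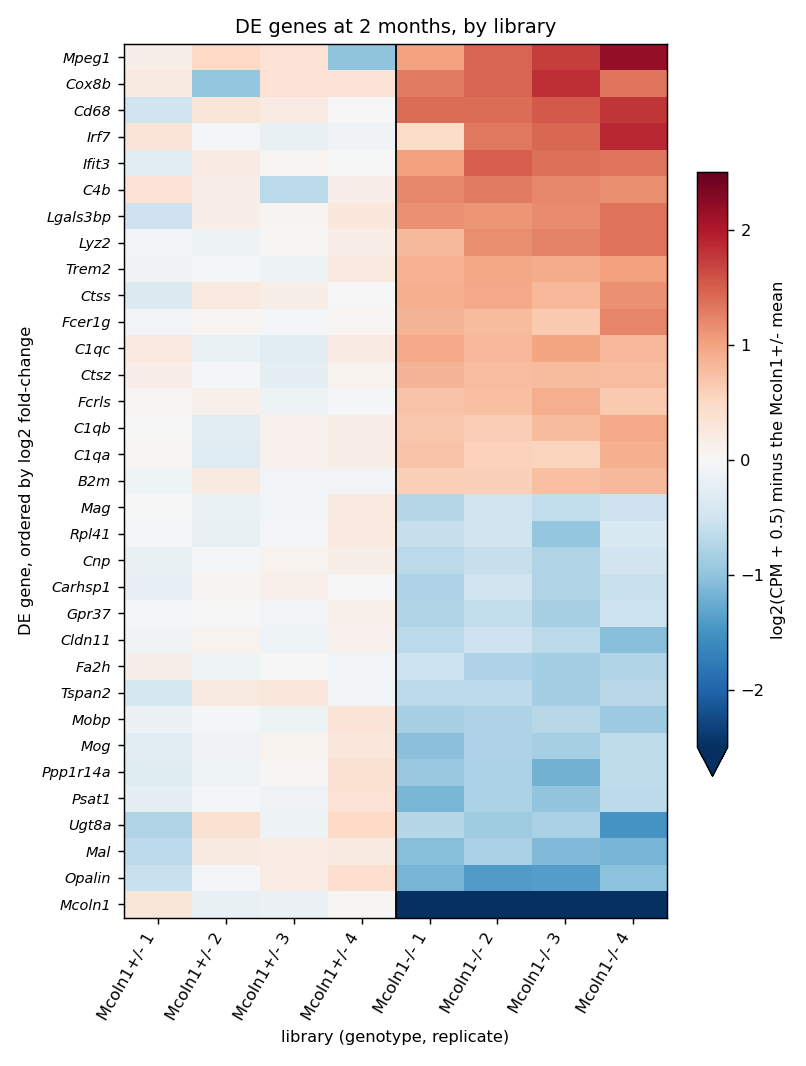
Rows are the 33 DE genes, columns the 8 libraries at 2 months, and colour is log2(CPM + 0.5) minus the Mcoln1+/- mean, with values beyond the scale shown in its end colour. Mcoln1+/- replicate 1 is nearer to the Mcoln1-/- libraries than the other controls are for Opalin, Mal and Ugt8a.

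The myelin sheath gave the largest group that fell. Of 32 tested genes of myelin proteins, 9 fell and none rose, the median log2 fold-change was -0.55, and in 16 all Mcoln1-/- libraries lay below all controls. Summed over the 34 genes in the table, their level was 12862, 16408, 16118 and 19281 CPM in controls and 11509, 11978, 11933 and 11907 CPM in Mcoln1-/- mice, 0.732 of the control level. The groups did not overlap, and the Mcoln1-/- libraries were alike (SD 217 CPM) while the controls were not (SD 2625 CPM). In bulk brain RNA, fewer oligodendrocytes and less of these transcripts per oligodendrocyte cannot be told apart.

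Opalin (chr19:41061710-41077113), a sialylated membrane protein of oligodendrocytes, was at 76.4, 109, 127 and 149.6 CPM in the Mcoln1+/- libraries and 49.7, 41.8, 42.7 and 55.1 CPM in the Mcoln1-/- libraries. Each Mcoln1-/- library was under the lowest control, Mcoln1+/- replicate 1, and the fall was 2.44-fold (log2 fold-change -1.29, SE 0.17, adjusted p = 0.000766). Mal, a proteolipid that sorts proteins to the myelin membrane, was at 319, 586, 572 and 584 CPM in the Mcoln1+/- libraries and 239, 283, 231 and 224 CPM in the Mcoln1-/- libraries. Its fall of 2.10-fold (log2 fold-change -1.07, SE 0.15, adjusted p = 0.000966) includes the low value of Mcoln1+/- replicate 1, and without this library the log2 fold-change was -1.24. Mog, a surface protein of the outermost myelin layer, was at 218, 250.2, 285 and 323 CPM in the Mcoln1+/- libraries and 129, 156, 149 and 171 CPM in the Mcoln1-/- libraries. No library of either group crossed into the other, and Mog fell 1.78-fold (log2 fold-change -0.83, SE 0.13, adjusted p = 0.00202). Mobp, a protein of compact myelin, was at 184, 198, 186 and 255 CPM in the Mcoln1+/- libraries and 115, 119, 125 and 108 CPM in the Mcoln1-/- libraries. Its Mcoln1-/- values lay within a narrow band below the controls, and the fall was 1.76-fold (log2 fold-change -0.81, SE 0.12, adjusted p = 0.00159).

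The other DE myelin proteins fell by less. Cldn11, the claudin of myelin tight junctions, fell from 261 ± 20.2 to 158 ± 24.2 CPM (SD, n = 4 each; log2 fold-change -0.72). Cnp, the phosphodiesterase of uncompacted myelin, fell from 1024 ± 106 to 665 ± 54.3 CPM, and Mag, the adhesion protein that faces the axon, from 398 ± 50.5 to 264 ± 17.1 CPM. Tspan2, a tetraspanin of oligodendrocytes, fell from 89.9 ± 19.9 to 53.6 ± 3.24 CPM, and Gpr37, an orphan receptor of oligodendrocytes, from 119 ± 7.63 to 74 ± 6.51 CPM. The log2 fold-changes of these 4 genes were -0.62, -0.59, -0.75 and -0.68, with adjusted p values of 0.00544, 0.0123, 0.0222 and 0.00544. The calls of Cnp, Mag and Gpr37 were lost without Mcoln1-/- replicate 1 (adjusted p = 0.0519, 0.109 and 0.0519), as was that of Tspan2 (0.0961), so that 5 genes of the list remained. That of Cnp was also lost without Mcoln1+/- replicate 4 or Mcoln1-/- replicate 3, that of Mag without Mcoln1+/- replicate 4 or Mcoln1-/- replicate 2 or 3, and that of Tspan2 without any library other than Mcoln1+/- replicates 1 and 4.

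Without Mcoln1+/- replicate 1, 18 of the 32 myelin protein genes fell, with Evi2a, S1pr5, Pllp, Ndrg1, Lpar1, Hapln2, Ermn and Tmem88b among those added. Without Mcoln1+/- replicate 4, 7 of the 32 fell, with Cnp and Mag lost. Mbp, which encodes myelin basic protein, was at 7099, 8711, 8771 and 11049 CPM in the Mcoln1+/- libraries and 6543, 6896, 7176 and 6876 CPM in the Mcoln1-/- libraries, and only the lowest control overlapped the Mcoln1-/- libraries (log2 fold-change -0.37, adjusted p = 0.351). Ndrg1, a cytoplasmic protein of oligodendrocytes and Schwann cells, passed the adjusted p but not the fold (195 and 132 CPM, log2 fold-change -0.57, adjusted p = 0.0202).

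Enzymes that make myelin lipids followed in part. Of 22 tested genes, 2 fell and none rose, with a median log2 fold-change of -0.22. Fa2h, which hydroxylates the fatty acids of myelin galactolipids, was at 138, 116, 125 and 118 CPM in the Mcoln1+/- libraries and 84.8, 72.2, 68.7 and 73.0 CPM in the Mcoln1-/- libraries. All Mcoln1-/- libraries were below all controls, and Fa2h fell 1.66-fold (log2 fold-change -0.73, SE 0.12, adjusted p = 0.00305). Ugt8a, which transfers galactose to ceramide to make galactosylceramide, was at 26.6, 59.2, 41.5 and 63.6 CPM in the Mcoln1+/- libraries and 27.4, 24.2, 25.4 and 15.8 CPM in the Mcoln1-/- libraries. Mcoln1+/- replicate 1 was within the range of the Mcoln1-/- libraries, the exact permutation p was 0.0571, and the edgeR call (log2 fold-change -1.03, SE 0.22, adjusted p = 0.0452) was lost without any of the other 7 libraries (adjusted p from 0.0765 to 0.235). Gal3st1, which adds sulfate to galactosylceramide to make sulfatide, had 31.6 CPM in controls and 20.9 CPM in Mcoln1-/- mice, without overlap, and was not DE (log2 fold-change -0.61, adjusted p = 0.191). It was DE without Mcoln1+/- replicate 1 (log2 fold-change -0.71, adjusted p = 0.0218). None of 29 tested genes of cholesterol synthesis, control and transport was DE (median log2 fold-change 0.0057), and 1 had an unadjusted p under 0.05.

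Regulators of oligodendrocytes had lower values in Mcoln1-/- mice, but none was DE, and 5 of 11 had an unadjusted p under 0.05. All 11 tested had a log2 fold-change below 0 (median -0.30), and their summed level was 1118, 975, 1062 and 1030.0 CPM in controls and 838, 809, 843 and 840.3 CPM in Mcoln1-/- mice, without overlap. Myrf, the transcription factor that switches on myelin genes, had 49.8 CPM in controls and 34.7 CPM in Mcoln1-/- mice (log2 fold-change -0.52, adjusted p = 0.214). Sox10, which specifies the lineage, had 121 and 83.7 CPM (log2 fold-change -0.53, adjusted p = 0.351), and Olig1, a lineage factor, 348 and 259.8 CPM (log2 fold-change -0.42, adjusted p = 0.188). Markers of oligodendrocyte precursors had a median log2 fold-change of 0.14 over 11 genes tested, of which none was DE or had an unadjusted p under 0.05, with Pdgfra, the receptor through which platelet-derived growth factor drives their division, at 12.7 and 11.4 CPM (log2 fold-change -0.12) and Cspg4, the proteoglycan NG2, at 8.2 and 11.0 CPM (log2 fold-change 0.49).

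Of the DE genes that fell, 4 besides Mcoln1 were in none of the lists. Psat1 (chr19:15904678-15947337), the aminotransferase of the serine synthesis pathway, was at 128, 145, 142 and 194 CPM in the Mcoln1+/- libraries and 68.1, 86.8, 76.1 and 96.0 CPM in the Mcoln1-/- libraries. The groups did not overlap and the fall was 1.86-fold (log2 fold-change -0.90, SE 0.14, adjusted p = 0.00241). The other enzymes of the pathway, added after the values of Psat1 were seen, were not DE. Phgdh, the first enzyme, had 49.1 and 40.3 CPM, without overlap (log2 fold-change -0.28, adjusted p = 0.621), and Psph, the last, 109.9 and 100.4 CPM (log2 fold-change -0.13). Ppp1r14a, which encodes the phosphatase inhibitor CPI-17, fell from 171 ± 35.0 to 91.8 ± 14.4 CPM (SD, n = 4 each; log2 fold-change -0.89), and Carhsp1, an RNA-binding protein, from 76.6 ± 7.76 to 48.8 ± 4.68 CPM (log2 fold-change -0.65). Rpl41, a ribosomal protein gene that falls outside the rule for named genes and has many near-identical copies in the genome, went from 1895 ± 241 to 1256 ± 205 CPM. Its value is uncertain because reads that match several copies equally are not mapped uniquely and were not counted. Psat1 and Ppp1r14a kept their calls in every fit that left out a library. Carhsp1 kept its call only without Mcoln1+/- replicate 1 or 4 (otherwise adjusted p from 0.0559 to 0.164), and Rpl41 only without Mcoln1+/- replicate 1 or 2 or Mcoln1-/- replicate 4 (otherwise from 0.119 to 0.228).

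**Figure D3:**
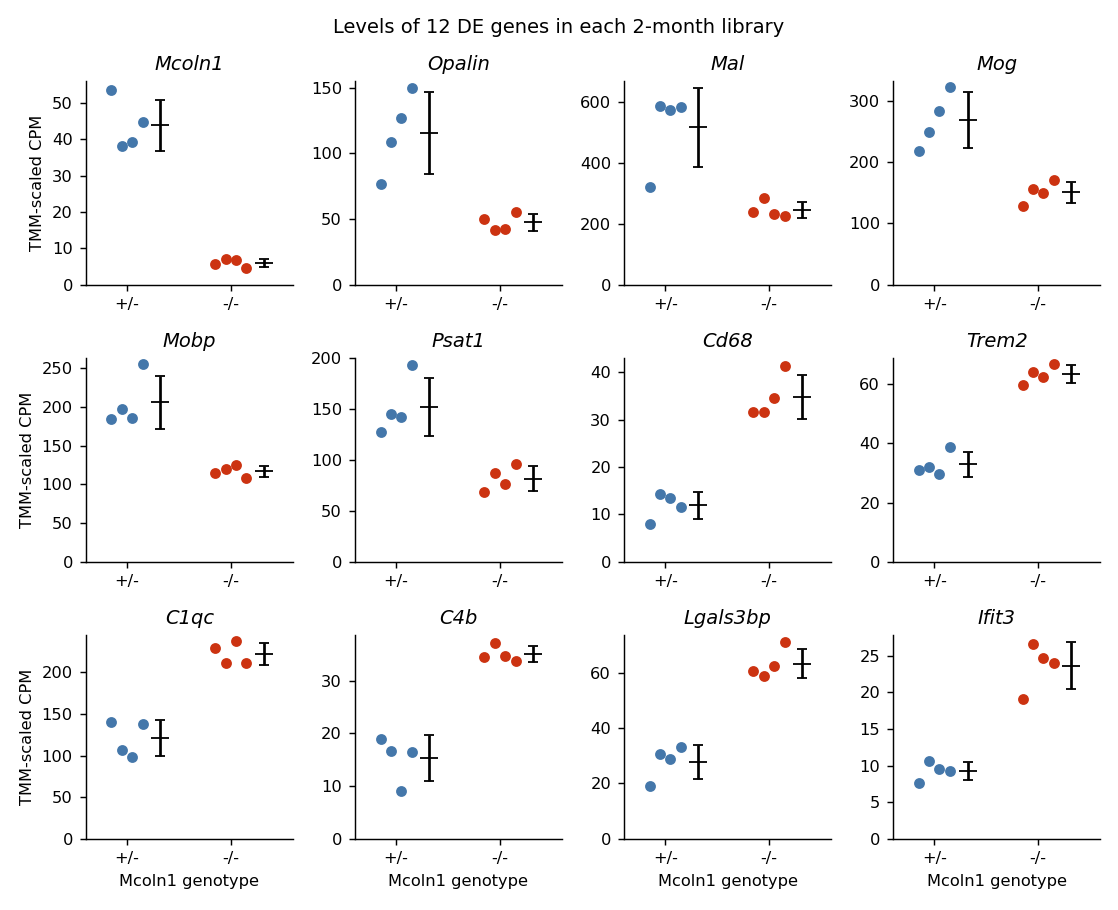
Each panel shows 1 DE gene, with TMM-scaled CPM on the y axis from 0, a point for each of the 4 Mcoln1+/- (+/-) and 4 Mcoln1-/- (-/-) libraries in replicate order, and the mean with SD beside them. The groups are apart in all 12 panels, and the low control of Mal and Opalin is Mcoln1+/- replicate 1.

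By number of DE genes with all 8 libraries, genes of microglia were the largest group that rose. Without Mcoln1+/- replicate 1, 8 genes of the IFN response and 7 markers of disease-associated microglia rose. Of 26 tested markers of disease-associated microglia, a state described in models of neurodegeneration, 7 rose and none fell, the median log2 fold-change was 0.53, and 12 were without overlap, all higher. Cd68 (chr11:69664213-69666153), a lysosomal glycoprotein of phagocytes, was at 8.07, 14.4, 13.5 and 11.7 CPM in the Mcoln1+/- libraries and 31.6, 31.6, 34.6 and 41.4 CPM in the Mcoln1-/- libraries. The lowest Mcoln1-/- library was above the highest control by more than the range of the controls, and Cd68 rose 2.84-fold (log2 fold-change 1.51, SE 0.19, adjusted p = 0.00064). Trem2, a lipid-sensing receptor of microglia, was at 30.9, 31.9, 29.8 and 38.9 CPM in the Mcoln1+/- libraries and 59.8, 64.1, 62.5 and 66.9 CPM in the Mcoln1-/- libraries. Its values were tight in both groups and apart, and the rise was 1.93-fold (log2 fold-change 0.95, SE 0.13, adjusted p = 0.000941). Lyz2, the lysozyme of myeloid cells, was at 19.0, 18.2, 20.3 and 22.3 CPM in the Mcoln1+/- libraries and 35.1, 45.2, 47.6 and 51.6 CPM in the Mcoln1-/- libraries. It rose 2.24-fold (log2 fold-change 1.16, SE 0.16, adjusted p = 0.000941), with Mcoln1-/- replicate 1 the lowest of its group. Fcer1g, an adaptor chain shared by immune receptors, was at 22.8, 24.7, 23.4 and 24.8 CPM in the Mcoln1+/- libraries and 43.4, 41.5, 37.7 and 56.2 CPM in the Mcoln1-/- libraries. The 4 controls were nearly equal, all Mcoln1-/- libraries were higher, and the rise was 1.86-fold (log2 fold-change 0.90, SE 0.16, adjusted p = 0.00544).

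Mpeg1, a pore-forming protein of macrophages, was counted in few reads, 8, 16, 10 and 3 in controls and 21, 33, 20 and 34 in Mcoln1-/- libraries. It had the largest log2 fold-change among the genes that rose (1.56, SE 0.33, adjusted p = 0.0405), and the call was lost without any library other than replicate 1 of either genotype (adjusted p from 0.0733 to 0.214). The proteases Ctss and Ctsz, described with the lysosome, are the other members that rose. Tyrobp, the signaling partner of Trem2, had 84.1 CPM in controls and 125 CPM in Mcoln1-/- mice, without overlap, and was not DE (log2 fold-change 0.56, adjusted p = 0.153). Apoe, a lipid carrier made by astrocytes and microglia, was at 4822 and 5023 CPM (log2 fold-change 0.06, adjusted p = 0.932), and the MHC class II genes H2-Aa, H2-Ab1 and Cd74, none of them DE, had log2 fold-changes of -0.35, 0.51 and -0.05. Another 5 members in the table had too few counts to be tested. Among these Cst7, which encodes the cystatin F of activated microglia and was singled out after its values were seen, had 1, 0, 1 and 0 reads in controls and 9, 11, 10 and 15 in Mcoln1-/- libraries.

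Of 14 tested markers of microglia at rest, only Fcrls, an Fc receptor-like protein of microglia, rose, from 29.7 ± 2.31 to 50.5 ± 3.73 CPM (SD, n = 4 each; log2 fold-change 0.75, SE 0.14, adjusted p = 0.00902), and its call was lost without Mcoln1+/- replicate 3 or Mcoln1-/- replicate 2 or 3 (adjusted p = 0.0604, 0.0539 and 0.0531), which left none. The median log2 fold-change of the list was 0.24, and its summed level, in which Rhob had the most reads, was 811, 847, 766 and 874 CPM in controls and 907, 888, 918 and 961 CPM in Mcoln1-/- mice, without overlap. Of the 14 genes, 12 had a log2 fold-change above 0, 3 were without overlap, all higher, and 5 had an unadjusted p under 0.05. Tmem119, a membrane protein used to tell microglia from other macrophages, had 40.8 and 45.6 CPM (log2 fold-change 0.17, adjusted p = 0.836). P2ry12, the purinergic receptor of resting microglia, had 19.0 and 18.0 CPM (log2 fold-change -0.11, adjusted p = 0.94), Cx3cr1, the fractalkine receptor, 19.9 and 25.9 CPM (log2 fold-change 0.36), and Csf1r, the receptor on which microglia depend to survive, 73.8 and 89.2 CPM (log2 fold-change 0.27). Of the markers that define cells from the blood, Ccr2 and Cd3e were not in the table used here, and S100a8 was at 1.42, 0.313, 0.451 and 4.86 CPM in controls and 0.347, 0, 0.619 and 0.511 CPM in Mcoln1-/- mice. The share of the microglial values that comes from a change in the number of microglia was not tested.

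Complement genes of the classical pathway rose. All 4 tested genes of this pathway were DE and higher, and none of 8 tested complement receptors and inhibitors was, or had an unadjusted p under 0.05. C1qa, C1qb and C1qc encode the chains of C1q and lie next to each other on chromosome 4, from chr4:136880129-136886187 to chr4:136895917-136898803. C1qc was at 141, 106, 97.8 and 138 CPM in the Mcoln1+/- libraries and 229, 212, 238 and 211 CPM in the Mcoln1-/- libraries, with no overlap and a rise of 1.85-fold (log2 fold-change 0.89, SE 0.13, adjusted p = 0.000941). C1qb rose from 184 ± 24.2 to 309 ± 33.2 CPM and C1qa from 199 ± 27.9 to 318 ± 35.2 CPM (SD, n = 4 each; log2 fold-changes 0.75 and 0.68), and the call of C1qa was lost without Mcoln1+/- replicate 2, where the fold was under 1.5 (log2 fold-change 0.58), or Mcoln1-/- replicate 4 (adjusted p = 0.0623). C4b, the component cleaved after C1q binds, was at 19.0, 16.6, 9.02 and 16.5 CPM in the Mcoln1+/- libraries and 34.4, 37.2, 34.6 and 33.7 CPM in the Mcoln1-/- libraries. It rose 2.29-fold (log2 fold-change 1.19, SE 0.19, adjusted p = 0.00241), and the Mcoln1-/- libraries differed little from each other. Clu, an abundant complement inhibitor made by astrocytes, had 1473 and 1581 CPM (log2 fold-change 0.10). C3, the component at which the pathways meet, had too few reads to be tested, 2, 8, 2 and 4 in controls and 8, 13, 7 and 4 in Mcoln1-/- libraries.

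C4b is also a marker of reactive astrocytes, and was the only DE gene of 9 tested on that list. Without Mcoln1-/- replicate 3, the chemokine gene Cxcl10 was tested and rose as well. The median log2 fold-change of the 9 was 0.49, 4 were without overlap, all higher, and 4 had an unadjusted p under 0.05. Over 18 genes of the list, the summed level was 334, 401, 408 and 440 CPM in controls. It was 484, 534, 540 and 590 CPM in Mcoln1-/- mice, 1.36-fold and without overlap. Gfap, the intermediate filament of astrocytes, was at 98.3, 130.3, 158 and 155 CPM in the Mcoln1+/- libraries and 168, 169, 229.5 and 273 CPM in the Mcoln1-/- libraries. All Mcoln1-/- libraries were above all controls, with the highest values in the male replicates 3 and 4, and Gfap was not DE (log2 fold-change 0.62, SE 0.16, adjusted p = 0.14). Serpina3n, a secreted protease inhibitor, had 25.7 and 38.1 CPM, without overlap (log2 fold-change 0.56, adjusted p = 0.223). The 15 general markers of astrocytes held no DE gene, with a median log2 fold-change of 0.04, and Slc1a2, the glial glutamate transporter with the most reads on the list, was at 1291 and 1438 CPM.

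Of 36 tested genes of the IFN response, 4 rose and none fell, 33 had a log2 fold-change above 0, the median was 0.54, and 15 were without overlap, all higher. The summed level of the 49 genes in the table was 749, 856, 862 and 829 CPM in controls and 1134, 1126, 1133 and 1318 CPM in Mcoln1-/- mice, 1.43-fold and without overlap. The count of 4 was 8 without Mcoln1+/- replicate 1, which added Oasl2, Bst2, Irgm1 and Lgals9, and 2 without Mcoln1+/- replicate 3 or Mcoln1-/- replicate 4. The promoters of many IFN-induced genes hold the IFN-stimulated response element, and the 300 bases around the start of the genes that rose and hold its letters are printed here. They run from 250 bases before the start to 50 after it (RefSeq, GRCm38.p6, all on the plus strand, 5′ to 3′), and the capitals mark GAAA, any pair of bases and GAAA again, or the same letters read on the other strand. Ifit3 and its near-identical copy Ifit3b are shown together, since reads that match both equally are not mapped uniquely and were not counted.
Ifit3 (chr19:34583279-34583578): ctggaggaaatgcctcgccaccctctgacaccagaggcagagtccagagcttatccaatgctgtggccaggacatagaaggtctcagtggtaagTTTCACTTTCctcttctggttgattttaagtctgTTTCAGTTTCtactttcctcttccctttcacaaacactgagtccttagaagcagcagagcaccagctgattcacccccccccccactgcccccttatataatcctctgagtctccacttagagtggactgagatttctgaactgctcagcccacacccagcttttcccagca
Ifit3b (chr19:34607707-34608006): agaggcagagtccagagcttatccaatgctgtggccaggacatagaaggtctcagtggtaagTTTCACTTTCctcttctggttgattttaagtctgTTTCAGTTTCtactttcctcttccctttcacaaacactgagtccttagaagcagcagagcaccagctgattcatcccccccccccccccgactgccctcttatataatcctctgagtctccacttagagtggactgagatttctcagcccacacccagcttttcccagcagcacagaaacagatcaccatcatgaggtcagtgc
B2m (chr2:122147437-122147736): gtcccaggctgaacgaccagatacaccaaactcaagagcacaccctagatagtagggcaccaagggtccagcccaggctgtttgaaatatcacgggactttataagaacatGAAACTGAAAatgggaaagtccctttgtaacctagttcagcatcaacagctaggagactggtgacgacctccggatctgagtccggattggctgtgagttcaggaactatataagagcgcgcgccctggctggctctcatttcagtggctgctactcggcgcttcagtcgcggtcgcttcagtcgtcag
Ctss (chr3:95526536-95526835): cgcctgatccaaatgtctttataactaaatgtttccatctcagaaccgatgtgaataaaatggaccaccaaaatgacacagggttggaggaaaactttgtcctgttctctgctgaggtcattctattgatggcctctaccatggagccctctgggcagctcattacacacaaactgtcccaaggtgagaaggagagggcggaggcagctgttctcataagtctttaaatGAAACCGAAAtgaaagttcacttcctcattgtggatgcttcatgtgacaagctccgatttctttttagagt
These letters, searched on both strands, were in 12 of 30 promoters of the tested IFN genes (40.0%) against 3.54% of 8143 promoters of all genes tested and 3.99% of all 27025 promoters of this length. With CT required after them, they were in 7 of the 30 (23.3%), in 0.246% of those of genes tested and in 0.303% of all. The list was made of genes of the IFN response, so its share does not bear on the genotypes. Of the 17 DE genes that rose, 15 had a promoter in the table, and Ifit3, B2m and Ctss held the shorter form. Of the 4 DE genes of the IFN response, Ifit3 and B2m held it, and Irf7 and Lgals3bp did not. Ifit3 holds these letters at 156 and 122 bases before its start, Ifit3b at 188 and 154, B2m at 139 and Ctss at 21.

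Ifit3, an IFN-induced antiviral protein, was at 7.6, 10.6, 9.47 and 9.23 CPM in the Mcoln1+/- libraries and 19.1, 26.7, 24.7 and 24.0 CPM in the Mcoln1-/- libraries. The lowest Mcoln1-/- library was well above the highest control, and Ifit3 rose 2.51-fold (log2 fold-change 1.33, SE 0.20, adjusted p = 0.00159). Its copy Ifit3b was not DE on fewer reads (3.28 and 8.50 CPM, log2 fold-change 1.35, adjusted p = 0.128). Lgals3bp, a secreted glycoprotein that binds galectins, was at 19.0, 30.7, 28.9 and 33.0 CPM in the Mcoln1+/- libraries and 60.8, 58.9, 62.5 and 71 CPM in the Mcoln1-/- libraries. It rose 2.25-fold (log2 fold-change 1.17, SE 0.16, adjusted p = 0.000766) and kept its call without any single library. Irf7, the transcription factor that amplifies type I IFN, was at 6.65, 5.01, 4.51 and 4.86 CPM in the Mcoln1+/- libraries and 7.30, 13.6, 14.8 and 20.4 CPM in the Mcoln1-/- libraries. The lowest Mcoln1-/- value, of replicate 1, was close to the highest control, and Irf7 rose 2.59-fold (log2 fold-change 1.37, SE 0.30, adjusted p = 0.049). Its call was likewise lost without any library other than replicate 1 of either genotype (log2 fold-change from 1.15 to 1.37, adjusted p from 0.127 to 0.253). B2m, the light chain of MHC class I, was at 72.2, 90.8, 74.4 and 74.3 CPM in the Mcoln1+/- libraries and 117, 117, 131 and 136 CPM in the Mcoln1-/- libraries. Mcoln1+/- replicate 2 was the highest control and still under every Mcoln1-/- library, and B2m rose 1.59-fold (log2 fold-change 0.67, SE 0.12, adjusted p = 0.00771), a call lost without Mcoln1+/- replicate 3 or Mcoln1-/- replicate 4 (adjusted p = 0.0555 and 0.0596).

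The heavy chains of MHC class I were without overlap too but not DE. H2-D1 had 111, 116, 130.3 and 104 CPM in controls and 156, 146, 155 and 172 CPM in Mcoln1-/- mice (log2 fold-change 0.44, adjusted p = 0.133), and H2-K1 had 66.7 and 95.4 CPM (log2 fold-change 0.51, adjusted p = 0.134). Oasl2, an IFN-induced antiviral protein, just missed the threshold, with 4.27, 4.07, 2.25 and 0.971 CPM in controls and 10.1, 9.61, 5.57 and 8.68 CPM in Mcoln1-/- mice (log2 fold-change 1.53, SE 0.34, adjusted p = 0.0523), as did Irgm1, an IFN-induced GTPase, with 11.1 and 22.1 CPM (log2 fold-change 0.96, SE 0.21, adjusted p = 0.0523). Isg15, a ubiquitin-like protein, had 8.68 and 10.6 CPM (log2 fold-change 0.23, adjusted p = 0.864). The receptor chains Ifnar1 and Ifnar2 had log2 fold-changes of -0.02 and 0.13. No gene of 15 tested chemokines and cytokines was DE, and 4 had an unadjusted p under 0.05. Without Mcoln1+/- replicate 1, Il33, which encodes the cytokine interleukin-33, was DE and lower (log2 fold-change -0.61, adjusted p = 0.0139). Ccl6, a chemokine of myeloid cells, had the largest log2 fold-change of them, at 1.42, 2.82, 2.70 and 4.86 CPM in controls and 6.25, 6.82, 8.66 and 10.2 CPM in Mcoln1-/- mice (log2 fold-change 1.39, SE 0.33, adjusted p = 0.0929), and Cxcl10, an IFN-induced chemokine, was not tested, with 2, 8, 8 and 4 reads in controls and 23, 22, 3 and 19 in Mcoln1-/- libraries. Without Mcoln1-/- replicate 3, the lowest of its group, Cxcl10 was tested and was DE and higher. Galectin-3 (Lgals3) had 4.93 and 8.71 CPM, without overlap (log2 fold-change 0.79, adjusted p = 0.395).

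**Figure D4:**
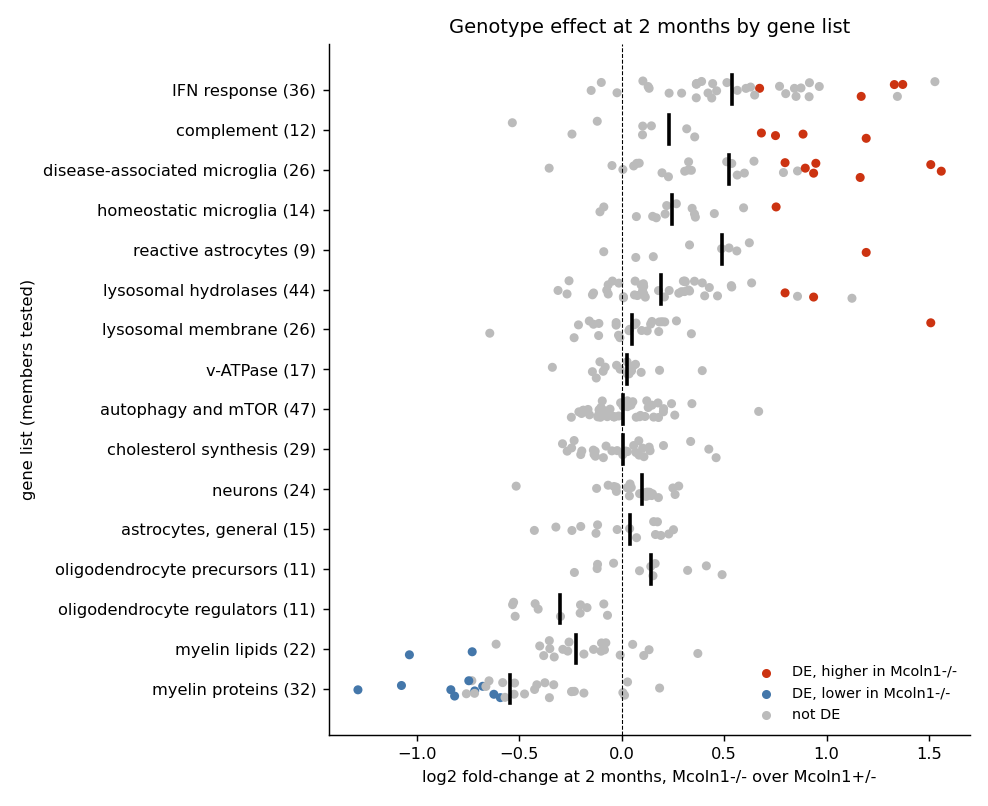
Each point is the log2 fold-change at 2 months of a tested member of the gene list named on the y axis (number tested in parentheses), red and blue where DE, black bars are list medians and the dashed line is the median of all genes tested. Medians lie at 0.54 for the IFN response, 0.53 for disease-associated microglia and -0.55 for myelin proteins, and from 0.0050 to 0.05 for lysosomal membrane proteins, the v-ATPase, autophagy and mTOR, and cholesterol synthesis.

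Of 44 tested hydrolases and other lumenal proteins of the lysosome, the organelle of TRPML1, 2 rose and none fell, the median log2 fold-change was 0.19, 34 were above 0 and 10 were without overlap, all higher. The summed level of the 48 genes in the table was 4247, 4042, 4208 and 4076 CPM in controls and 4841, 4858, 4959 and 4914 CPM in Mcoln1-/- mice, 1.18-fold and without overlap. Ctss, a cathepsin of microglia, was at 77.8, 119, 110.5 and 99.1 CPM in the Mcoln1+/- libraries and 186, 194, 179 and 221 CPM in the Mcoln1-/- libraries. The groups did not overlap and Ctss rose 1.91-fold (log2 fold-change 0.94, SE 0.13, adjusted p = 0.000941). Ctsz, another cathepsin prominent in microglia, was at 51.3, 44.8, 38.3 and 48.6 CPM in the Mcoln1+/- libraries and 82.3, 77.8, 79.2 and 78.1 CPM in the Mcoln1-/- libraries. The 4 Mcoln1-/- values were nearly equal and all above the controls, a rise of 1.74-fold (log2 fold-change 0.80, SE 0.13, adjusted p = 0.00241). Both are also on the list of disease-associated microglia. Ctsd, a cathepsin of all cells and the gene of the list with the most reads, passed the adjusted p but not the fold, at 609, 576, 678 and 653 CPM in the Mcoln1+/- libraries and 872, 866, 1015 and 899.5 CPM in the Mcoln1-/- libraries (1.45-fold, log2 fold-change 0.54, SE 0.10, adjusted p = 0.0149). Grn, progranulin, had 70.5 and 110.1 CPM without overlap (log2 fold-change 0.63, adjusted p = 0.0538).

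Among 26 tested genes of the lysosomal membrane only Cd68 was DE, and the median log2 fold-change was 0.05. Lamp1, the main membrane glycoprotein, was at 650.0 and 646 CPM (log2 fold-change -0.01). Other cation channels and transporters of the organelle were not DE, with log2 fold-changes of 0.21 for the channel Tpcn1, -0.11 for Tmem175 and -0.03 for the chloride transporter Clcn7. The other mucolipins, Mcoln2 and Mcoln3, were not in the table used here. No gene was DE among 17 subunits of the v-ATPase, the proton pump that acidifies the lysosome (median log2 fold-change 0.03), 47 genes of autophagy and mTOR signaling (median 0.0050), 14 of iron handling (median 0.14) or 20 of calcium binding and signaling (median 0.06), of which 2, 1, 3 and 1 had an unadjusted p under 0.05. Without Mcoln1+/- replicate 1, Atp6v0a1, a membrane subunit of the v-ATPase, was DE and higher (log2 fold-change 0.72, adjusted p = 9.64e-05), and without Mcoln1+/- replicate 4 so was Ftl1, the light chain of ferritin, on the list of iron handling. The letters TCACGTGA, a form of the element bound by TFEB, were in 8 of 69 promoters of the tested lysosomal genes (11.6%) on either strand, against 2.22% of 8143 promoters of all genes tested and 1.12% of all promoters. They were in that of Mcoln1 and in none of those of Ctss, Ctsz and Cd68. The shorter CACGTG, part of it, was in 26.1% of the lysosomal promoters, 12.2% of those of all genes tested and 8.09% of all.

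Cox8b (chr7:140898945-140900446), a subunit of cytochrome c oxidase known from heart and skeletal muscle, rose outside these lists. It was at 5.70, 2.19, 6.31 and 6.31 CPM in the Mcoln1+/- libraries and 12.5, 13.9, 18.6 and 12.8 CPM in the Mcoln1-/- libraries, and its lowest value was that of Mcoln1+/- replicate 2. The groups did not overlap, and the rise was 2.89-fold (log2 fold-change 1.53, SE 0.29, adjusted p = 0.0113). The reads were few, 12, 7, 14 and 13 in controls and 36, 45, 30 and 25 in Mcoln1-/- libraries, and the call was lost without Mcoln1+/- replicate 2 or Mcoln1-/- replicate 2 or 3 (adjusted p = 0.0606, 0.0539 and 0.0531). Its paralog Cox8a, expressed in most tissues, had 573 and 598 CPM (log2 fold-change 0.06). The 3′ end of Cox8b faces that of Psmd13, a proteasome subunit, 301 bases away, and the use of strand in counting is not given. Psmd13 had 146 CPM in controls and 143 CPM in Mcoln1-/- mice (log2 fold-change -0.02).

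No DE gene was found on the lists of neurons (24 tested, median log2 fold-change 0.10), immediate early genes (18, median -0.11), heat shock and endoplasmic reticulum stress (13, median -0.13), endothelium and mural cells (13, median 0.12), choroid plexus (9, median 0.05) or on those of cerebellum, striatum, hypothalamus and pituitary, hippocampus and thalamus, and olfactory bulb (medians from -0.31 to 0.22). Each of these lists held at most 2 genes with an unadjusted p under 0.05, a share to set beside 7.88% of all genes tested. It was 2 of 6 for the olfactory bulb and 2 of 8 for hippocampus and thalamus. For the cerebellum and for endothelium and mural cells it was 2 of 13 each, and for neurons 2 of 24. The others held 0 or 1. Of the 6 olfactory bulb genes, 5 had a log2 fold-change below 0 (median -0.31). Without Mcoln1+/- replicate 1, Ppp1r17, a phosphatase inhibitor of Purkinje cells, was DE and lower on the cerebellum list (log2 fold-change -0.67, adjusted p = 0.0353). Neither DESeq2 nor limma-voom called a gene on any list without a DE gene. Nrgn, a calmodulin-binding protein of forebrain neurons and the one with the most reads on the neuronal list, was at 8991, 5548, 6433 and 6029 CPM in controls and 6686, 6145, 6516 and 7183 CPM in Mcoln1-/- mice, with Mcoln1+/- replicate 1 the highest. Pcp2, a protein of cerebellar Purkinje cells whose gene lies within 1 Mb of Mcoln1, was at 426, 465, 639 and 596 CPM in controls and 364, 489, 425 and 502 CPM in Mcoln1-/- mice (log2 fold-change -0.26, adjusted p = 0.678). Calb2, calretinin, a calcium-binding protein of interneurons and other neurons, was at 345 and 318 CPM (log2 fold-change -0.12, adjusted p = 0.858). Penk, which encodes the enkephalin precursor of striatal neurons, was at 891 and 862 CPM, and Ttr, transthyretin of the choroid plexus, at 3260.5 and 3562 CPM.

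At 1 month, with 4 libraries of each genotype, 48 of 11051 genes tested were DE (0.434%), 5 higher and 43 lower, and at 3 months, with 4 controls and 3 Mcoln1-/- libraries, 5 of 11412 were (0.0438%), 4 higher and 1 lower. All 33 genes that were DE at 2 months had the same direction at both other ages, 14 were DE at 1 month and 4 at 3 months. Of the 16 that fell at 2 months 12 were DE at 1 month, Opalin, Mal, Mog, Mobp, Cnp, Mag and Cldn11 among them, and of the 17 that rose only Cd68 and Mpeg1 were. The median log2 fold-change of the 17 was 0.95 at 2 months, 0.42 at 1 month and 0.96 at 3 months, and that of the 16 was -0.78, -0.84 and -0.70. Since the genes were chosen for their effect at 2 months, a smaller median elsewhere is no result by itself. Whether the genotype effect differed between ages was tested gene by gene as an interaction over all 23 libraries. No gene of 11799 passed an adjusted p of 0.05 (0% called), for 2 months against 1 month (lowest adjusted p 0.999, with 390 genes at an unadjusted p under 0.05) or against 3 months (lowest 0.975, with 584 genes). DESeq2 and limma-voom called none either, with 301 and 393 genes at an unadjusted p under 0.05 against 1 month and 488 and 555 against 3 months. On simulated data, edgeR's interaction test found 56% of 2-fold differences against 1 month and 44% against 3 months. Differences between ages of that size can therefore be missed.

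The values of named genes at the 3 ages are given as a description, since their effect at 2 months chose them. Irf7 had a log2 fold-change of 0.05 at 1 month, 1.37 at 2 months and 1.49 at 3 months. Lgals3bp had 0.24, 1.17 and 1.37, and Ifit3 had 0.45, 1.33 and 0.96. Among markers of microglia, Cd68 had 0.83, 1.51 and 1.13, and Trem2 0.46, 0.95 and 1.14. Among myelin genes, Mog had -0.97, -0.83 and -0.90, and Mal -1.29, -1.07 and -0.88. Opalin had -1.19, -1.29 and -0.65. Psat1 had -0.44, -0.90 and -0.12. By list, the median log2 fold-change of the IFN response was 0.19 at 1 month, 0.54 at 2 months and 0.53 at 3 months, that of disease-associated microglia 0.22, 0.53 and 0.43, and that of myelin proteins -0.61, -0.55 and -0.56. The number of DE myelin protein genes was 16, 9 and 0 at these ages, and that of DE IFN response genes 0, 4 and 1.

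**Figure D5:**
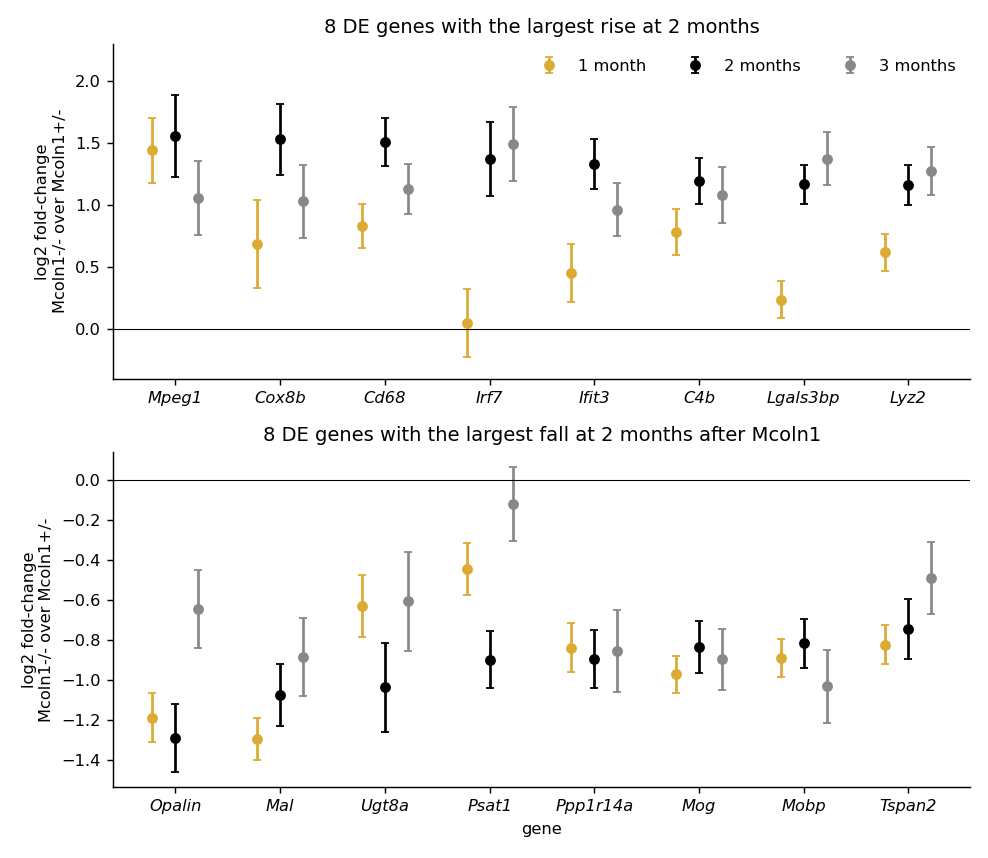
Points are log2 fold-changes of Mcoln1-/- over Mcoln1+/- brain at 1, 2 and 3 months, with an SE derived from edgeR's F statistic. They are shown for the 8 DE genes with the largest rise at 2 months (top) and the 8 with the largest fall after Mcoln1 (bottom). The genes were chosen for their values at 2 months, so smaller values at other ages are no age pattern. At 1 month Irf7 is at 0.05, Mal at -1.29 and Mog at -0.97.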

How the data were processed

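The authors mapped reads of the MARS-seq libraries to mm10 with STAR, kept reads mapped uniquely to genes and deposited raw counts per gene, without normalization. The submitters' processing notes name cutadapt and HTSeq. Use of molecular identifiers and of strand, and the annotation, are not given in the sources used here. The normalized values and the authors' fold changes and p-values were not used. Of 13777 gene names 23 had been turned into dates.

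Counts were tested with edgeR 4.0.16 (R 4.3.3; TMM, filterByExpr by group, quasi-likelihood test, Benjamini-Hochberg over all genes tested) on the 8 libraries alone. The threshold for DE was an adjusted p ≤ 0.05 with a change of 1.5-fold or more. Levels are TMM-scaled CPM. The SE of a log2 fold-change is its absolute value divided by the square root of edgeR's F statistic. Exact permutation tests on log2(CPM + 0.5) had 70 arrangements and a smallest p of 0.0286. Interactions used all 23 libraries. The tests were checked on simulated data with 200 changed genes. At 2 months, 31% of 1.5-fold changes and 85% of 2-fold changes were called DE. A gene that is not DE may thus have changed by an amount these libraries often miss.

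Named genes were Mcoln1, sex-linked genes, genes the study names that are on the lists, up to 12 DE genes without overlap in each direction, taken by size of change, DE members of each list and its most abundant tested member. Others named by value are list members or were added after their values were seen. Members and lists were chosen with earlier results of these data known. Coordinates are from GENCODE M21 (GRCm38), in which 96.3% of names were found, and promoters from RefSeq (GRCm38.p6). Some genes are not reported here.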

Additional observations from a re-analysis of the deposited data

Results flagged for a closer look

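In 168 groups of 4 libraries, 1 for each named gene and genotype, the highest or lowest library was set against the other 3, and 9 groups had a library whose gap to its nearest neighbour took up more of the group's range than Dixon's 95% limit allows. Chance gives about 1 such group in 20. Of these, 4 are Y-linked genes in a male library among libraries at 0. In Mcoln1+/- replicate 4, the only male control, Ddx3y was at 2.91 CPM, Eif2s3y at 3.40 CPM and Uty at 0.971 CPM. In Mcoln1-/- replicate 4, Uty was at 0.511 CPM, while replicate 3, also read as male, had none.

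Mcoln1+/- replicate 1 was low in Mal, at 319 CPM against 572 to 586 CPM in the other controls, and in Ifi30, a lysosomal thiol reductase of antigen processing induced by IFN, at 3.80 CPM against 7.52 to 8.26 CPM. Mcoln1+/- replicate 2 was low in Cox8b, at 2.19 CPM against 5.70 to 6.31 CPM, and high in B2m, at 90.8 CPM against 72.2 to 74.4 CPM. Mcoln1-/- replicate 3 was low in Mif, a cytokine also made by neurons, at 518 CPM against 536 to 539.5 CPM in the others of its group, and was the library with the lowest total count.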

How the results depend on the processing

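The number of DE genes was 33 and ranged from 28 to 45 over 10 alternatives with all 8 libraries: 36 with DESeq2's size factors, 35 with upper-quartile factors, 36 with no filter, 28 with at least 10 counts in every library, 43 with DESeq2 1.42.0, 29 with limma-voom (limma 3.58.1), 32 with sex as a term, 37 with all 23 libraries in the fit and 30 after thinning to the shallowest library. The replicate block gave 45 DE genes (25 higher, 20 lower) and 7 DE genes of the IFN response in place of 4. The labels do not say that the numbers pair the mice. Correlations of deviations between same-numbered libraries were 0.032, 0.105, 0.058 and 0.154. Those between libraries of different number ran from -0.146 to 0.187 and were mostly below 0. Mcoln1-/- replicates 2, 3 and 4 correlated best with the control of their own number, and Mcoln1-/- replicate 1 with Mcoln1+/- replicate 2. Whether same-numbered libraries share a source of variation was not tested. Of the 33 genes, 24 lost their call in none of the 10, though Mcoln1, Cox8b and Mpeg1 were not tested with at least 10 counts in every library (28 of the 30 tested there kept theirs), and Ugt8a, Rpl41, Mpeg1, Irf7, Mag, Tspan2, B2m, Fcrls and Carhsp1 lost it in at least 1. No DE gene changed direction in any alternative. Myelin lipid genes numbered 1 in place of 2 with at least 10 counts, limma-voom or the sex term, and Fcrls, the only DE marker of resting microglia, was lost (0 in place of 1) with all 23 libraries or thinning. Leaving out a library gave 24 to 85 DE genes, 13 to 35 higher and 9 to 50 lower, with the 85 from the fit without Mcoln1+/- replicate 1. Over these fits, DE genes numbered 2 to 8 for the IFN response, 5 to 18 for myelin proteins, 1 to 3 for myelin lipids, 0 to 1 for microglia at rest, 6 to 7 for disease-associated microglia, 3 to 4 for complement, 2 to 3 for lysosomal hydrolases and 1 to 2 for the lysosomal membrane. Among genes tested with all libraries, lists with no DE gene gained 1 for the v-ATPase and the cerebellum without Mcoln1+/- replicate 1, for chemokines and cytokines without Mcoln1+/- replicate 1, and for iron handling without Mcoln1+/- replicate 4. Cxcl10, not tested with all libraries, was DE and higher without Mcoln1-/- replicate 3. This gave 1 DE gene of chemokines and cytokines, and 2 of reactive astrocytes in place of 1. The cause of these shifts was not tested. Female libraries alone (3 controls and 2 Mcoln1-/-, chosen after seeing the data) left 1 DE gene, Mcoln1, lower, with 0 higher and 0 on each list of the IFN response, complement, microglia, myelin and lysosome, on fewer libraries, and all 33 kept their direction. No interaction with age passed under the other normalizations, filters and tools, the replicate block or any left-out library, the alternatives run for it. A pseudocount of 1 changed no permutation call. The total of 1614759 counts in the shallowest library limits genes of few reads, since 3 counts there are 1.86 CPM.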
